A study of Mus musculus with 6 samples.

Results

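Mouse genes whose symbol is another gene's symbol followed by "os" (opposite strand) are transcribed from, or next to, the locus of that other gene, in the opposite direction. Of the 10189 genes in a table from cultured articular chondrocytes, 60 had symbols that end in os, with or without a digit. Of these, 10 left no gene symbol when the suffix was removed (Sos1 and Pros1 among them) and 2 others were left out by name. The remaining 48 are described here against the gene they are named for, called the sense gene. A row for the sense gene was in the table for 27 of them. The mouse annotations used here hold 307 symbols that meet the rule, so most such transcripts had no row.

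The cells were primary chondrocytes from knee and hip cartilage of 5-week-old C57BL/6 mice, either MiR-34a -/- (allele Mir34atm1.2 Mrl, a global homozygous deletion, called KO) or wild type (WT). There were 3 untreated libraries of each genotype, made from total RNA of cells that had grown with 10% serum to confluence. Cartilage from hips and knees was pooled, and the labels do not say that the 3 libraries of a genotype came from separate animals, so p-values measure the spread between these libraries, which may be technical. No row for Mir34a was in the table, so the deletion could not be checked on its own transcript. Libraries held 989217 to 5266617 reads, and 947081 to 1772185 without Rn45s, Lars2 and Mir6236. In WT 1 the ribosomal precursor Rn45s alone took 59.1% of reads. One read was worth 0.382 to 0.762 CPM, the unit of all levels below, which is a read count scaled to the size of its library by the TMM method.

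Natural antisense transcripts are RNAs, mostly noncoding, that are read from the DNA strand opposite a gene. They can pair with the sense RNA, interfere with its transcription or guide chromatin marks at the shared promoter, and many have no known function. Has2os, opposite the hyaluronan synthase Has2, and Hoxa11os, opposite a homeobox gene of limb patterning, are among the better known ones in connective tissue and limb. Dnm3os is the precursor of the miR-199a and miR-214 microRNAs and is needed for normal skeletal growth. miR-34a is a microRNA induced by p53 that represses mRNAs bearing a match to its seed.

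All 43 transcripts found in GENCODE M21 (build mm10) lay on the strand opposite their sense gene. Of these, 37 shared exon bases with it, from 62 to 3255 (median 220), and in 25 the shared bases included coding bases. A further 3 lay in introns of the sense gene (Dnm3os, Bcas3os1 and Arhgap27os3), Brip1os ran away from the start of Brip1 with a gap of 176 bases between them, and Fbxl12os and Slc7a6os lay beyond the 3′ end. Peg3os, Msx1os, Ggnbp2os, Chd3os and Ppp1r3fos were placed by RefSeq coordinates only. Cebpzos, Slc7a6os, Fancd2os, Wdr83os and Toporsos (Smim27 in GENCODE) are annotated as protein coding, so the suffix names a position and not always a noncoding RNA. The kit keeps strand, but the sources used here do not state whether the authors' counting used it. Where exon bases are shared, reads of the transcript and of its sense gene therefore cannot be told apart with certainty. Tsix, the antisense partner of the X-inactivation transcript Xist, had 8.12 to 16.5 times the CPM of Xist in 6 of 6 libraries, although Xist is usually the more abundant of the pair in differentiated cells. Whether rows hold reads of the strand they are named for was not tested, which limits every level, ratio and difference of a transcript and its sense gene given here.

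The stretches below show how closely such rows are tied to a coding sequence. Each is the transcript's own strand of GENCODE M21, read 5′ to 3′, and the capitals are bases that are the reverse complement of a coding exon of the sense gene. They were chosen because the shared part is one short run in transcripts whose values are given below.
Far1os, chr7:113540607-113540686, - strand: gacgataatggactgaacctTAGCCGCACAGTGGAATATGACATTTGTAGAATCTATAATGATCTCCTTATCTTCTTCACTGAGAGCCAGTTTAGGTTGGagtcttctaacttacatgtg
Rptoros, chr11:119821661-119821744, - strand: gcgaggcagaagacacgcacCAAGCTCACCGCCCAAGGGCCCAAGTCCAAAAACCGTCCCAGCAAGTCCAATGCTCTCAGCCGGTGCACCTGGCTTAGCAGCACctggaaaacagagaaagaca
Tnk2os, chr16:32665886-32665956, - strand: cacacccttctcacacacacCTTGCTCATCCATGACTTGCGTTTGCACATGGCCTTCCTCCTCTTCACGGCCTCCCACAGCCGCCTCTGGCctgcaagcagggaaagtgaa
Arhgap15os, chr2:44063762-44063834, - strand: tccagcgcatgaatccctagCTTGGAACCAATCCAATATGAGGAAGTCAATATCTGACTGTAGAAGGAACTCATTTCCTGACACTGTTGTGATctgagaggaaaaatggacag
Scpep1os, chr11:88935856-88935951, + strand: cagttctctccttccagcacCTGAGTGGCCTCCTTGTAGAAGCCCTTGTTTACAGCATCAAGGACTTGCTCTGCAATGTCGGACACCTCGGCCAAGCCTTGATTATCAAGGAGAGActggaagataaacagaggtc
The coordinates are those of the capitals. In Rptoros and Tnk2os the capitals match a whole exon of 6 and 7 transcripts of the sense gene, respectively. The capitals span 84 bases of 1174 in the Rptoros transcript and 71 of 1392 in that of Tnk2os. In Far1os they span 80 bases of 893, in Arhgap15os 73 of 1761 and in Scpep1os 96 of 811.

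The microRNA deleted here and those made from Dnm3os are shown next as their mature sequences from RefSeq, with the seed (bases 2 to 8) in capitals.
miR-34a-5p: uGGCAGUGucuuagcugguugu
miR-199a-5p: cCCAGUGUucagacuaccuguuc
miR-199a-3p: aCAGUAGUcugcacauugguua
miR-214-3p: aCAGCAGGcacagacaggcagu
The 4 seeds differ from each other. Only the longest annotated transcript of each gene was searched for the match to the miR-34a-5p seed, CACTGCC read on the transcript strand. The match stood in 10 of 43 transcripts (23.3%), at 14 places or 0.148 per kilobase of the transcripts searched. The same letters stood in 24.7% of the other rows not annotated as protein coding (0.137 per kilobase) and in 36.7% of all other rows (0.132 per kilobase), whose transcripts are longer. Phtf1os held 1 match, at base 3482 of 4046, and Arhgap15os held 1, at base 896 of 1761. Zfhx2os held 4 matches, and its log2 fold change in KO was 0.11. The others with a match had log2 fold changes of −1.03 (Arhgap20os), −0.71 (Rab10os), −0.38 (Tomm6os), −0.17 (Uckl1os), 0.09 (Chn1os3), 0.18 (Frs3os) and 0.48 (Mccc1os). The part of these matches in the fold changes was not tested.

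No transcript of the 48 passed the test between genotypes, but many sat lower in KO libraries. With limma on log2(CPM + 0.5), adjusted over all rows by Benjamini-Hochberg, the smallest adjusted p of a member was 0.273, and over all rows 0.00981% were called lower and 0% higher. At an unadjusted p below 0.05, 13 of 48 (27.1%) were lower in KO and 0 were higher. Over all rows these shares were 6.4% lower and 4.64% higher. The 13 include Kcnmb4os2 and Arhgap15os, whose KO values were all below 7.35 CPM, the lowest second-highest value of any row, so that both were in the table only through WT and a lower KO value was favoured. Among rows that reached 7.35 CPM in at least 1 library of each genotype, 11 of 46 members (23.9%) and 6.42% of 9878 rows were lower. In the same rows 0 members and 4.27% of rows were higher, a comparison added after the data were seen. The 11 still hold Rptoros, at 4.96, 4.41 and 9.18 CPM in KO. Its second-highest KO value was below 7.35 CPM, so a lower KO value was favoured there too. The 3 KO values lay below all 3 WT values in 13 of 48, and above them in 1, Mccc1os. Over all rows the shares were 9.57% and 8.82%. Among the 399 other rows not annotated as protein coding, 22.3% had all KO values below all WT values. The median log2 fold change was −0.39, against 0.02 over all rows, and 32 of 48 were below 0 (48.6% of all rows). Without WT 2 the unadjusted count was 7 lower (3.77% of all rows), and without WT 3 it was 6 lower and 2 higher (3.94% of all rows lower). DESeq2 on the recovered reads called 2 of the 19 members for which it gave an adjusted p, both lower: Phtf1os (adjusted p = 0.00286) and Has2os (adjusted p = 0.00393). Of the 4056 rows with an adjusted p it called 2% lower and 0.666% higher. At an unadjusted p below 0.05 DESeq2 had 12 members lower and 0 higher, where all rows gave 5.01% and 4.26%. edgeR's quasi-likelihood test called 0 members (all rows 0.0196% lower and 0% higher), with 14 lower and 0 higher at an unadjusted p below 0.05, where all rows gave 5.82% and 4.54%.

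**Figure D1:**
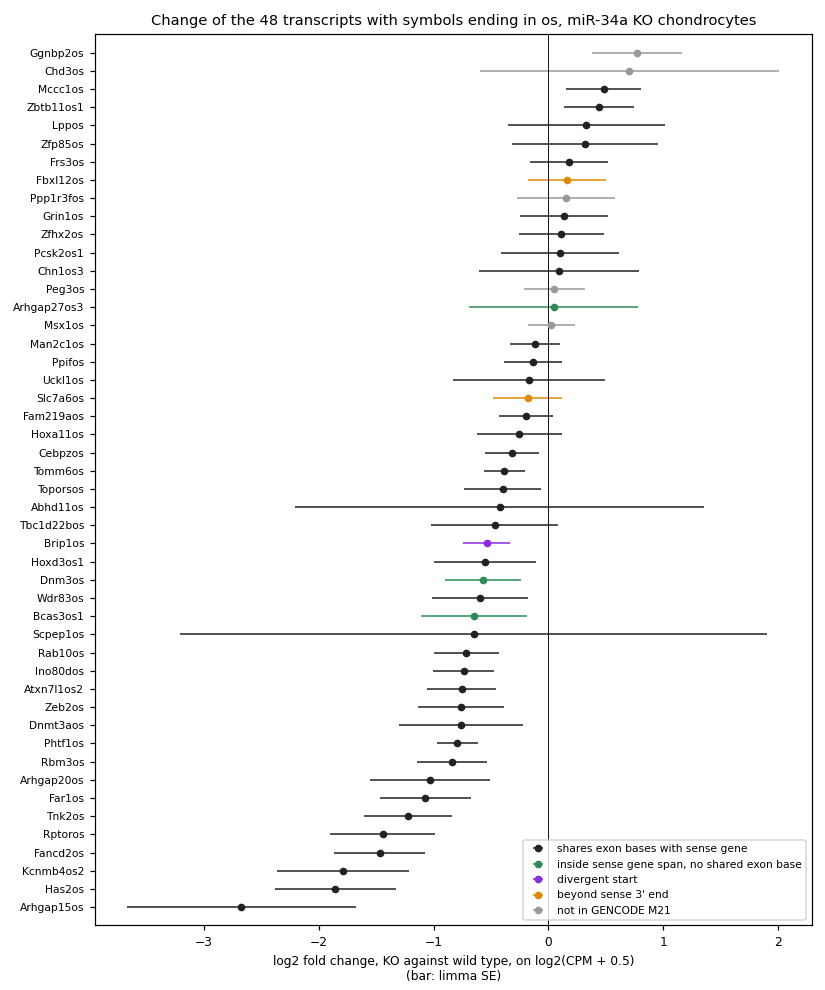
The horizontal axis is the log2 fold change, KO against WT, on log2(CPM + 0.5), with a bar of 1 limma standard error, for each of the 48 transcripts; colours give the position relative to the sense gene. The points run from −2.67 for Arhgap15os to 0.77 for Ggnbp2os, and 32 of 48 lie left of 0.

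As a share of all reads outside Rn45s, Lars2 and Mir6236, the 48 transcripts took 0.661%, 0.702% and 0.815% in WT 1 to 3 and 0.561%, 0.506% and 0.608% in KO 1 to 3. Their summed level was 4712, 5066 and 5862 CPM in WT, and 3794, 3486 and 4227 CPM in KO. All 3 KO sums were below all 3 WT sums. Without the 4 most abundant members the sums were 2294, 2383 and 3043 CPM in WT and 1654, 1747 and 2203 CPM in KO, again without overlap. These smaller sums include Zeb2os, the next most abundant, at 472, 539 and 341 CPM in WT and 140, 434 and 293 CPM in KO. Taking Zeb2os out as well puts KO 3 above WT 1 and WT 2, so the lack of overlap in the smaller sums rests on that transcript. These are bulk cultures, so fewer cells of a type and less RNA per cell cannot be told apart.

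Other rows of the table were grouped by whether they face a gene on the opposite strand. Among 898 other rows that share bases with coding exons of an opposite-strand gene, 12.2% were lower and 2.45% higher at an unadjusted p below 0.05, and the median log2 fold change was −0.20. For 2721 rows that share only noncoding exon bases with such a gene 8.75% were lower and 4.26% higher, with a median of −0.02. For 6455 rows with no shared exon base 4.42% were lower and 5.14% higher, with a median of 0.07. Of 399 other rows not annotated as protein coding, 12.5% were lower and 2.76% higher, with a median of −0.31. In these 399, 291 fold changes were below 0. All KO values lay below all WT values in 89 (22.3%) and above them in 13. Of 166 noncoding rows opposite coding exons, 12% were lower and 1.2% higher, with a median of −0.39, as for the 48. In these 166, 133 fold changes were below 0. All KO values lay below all WT values in 37 (22.3%) and above them in 3. Among the 48, the 25 that share coding bases with the sense gene had 7 lower and a median of −0.32, and the 12 that share exon but no coding bases had 5 lower and a median of −0.75. The 5 outside GENCODE all had fold changes above 0, from 0.03 to 0.77. Whether these sets differ was not tested.

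The rows of cell type markers also differed between the cultures, and are listed here by summed CPM. Whether these rows hold reads of the strand they are named for was not tested either. The 12 of 14 chondrocyte markers with a row (among them Col2a1 and Acan, the main cartilage collagen and proteoglycan) summed to 2475 to 3820 in WT and 3830 to 6906 in KO, and 11 had a higher mean in KO (mean CPM and mean log2 alike). The 5 osteoblast markers summed to 963 to 2444 in WT and 3210 to 4137 in KO, with 4 higher and 1 lower in KO by either mean. Mural cell markers (5 of 6 with a row) summed to 331 to 491 in WT and 118 to 260.2 in KO. By either mean 4 of them were lower and 1 higher in KO. The 8 macrophage markers summed to 4699 to 5437 in WT and to 918, 14077 and 2886 in KO 1 to 3, so KO libraries lay on both sides of WT. Of the 8, 7 had a lower KO mean of log2 values and 4 a lower KO mean in CPM. Neutrophil markers (2 of 4 with a row) summed to 53.9 to 72.2 in WT and to 0 in every KO library. Endothelial markers (2 of 3 with a row) summed to 11.3 to 34.0 in WT and to 0, 43.6 and 0 in KO 1 to 3, and erythroid markers had no row. The part of these markers in the results on the antisense transcripts was not tested.

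Phtf1os was the most abundant of the 48 and had the smallest p. It lies at chr3:103964536-103968581, opposite Phtf1, a gene for a membrane protein of the endoplasmic reticulum, with which it shares 448 exon bases. Its level was 794, 877 and 938 CPM in WT 1 to 3 and 487, 463.5 and 555 CPM in KO 1 to 3, a log2 fold change of −0.79 (limma SE 0.18, adjusted p = 0.273). The genotypes did not overlap, and every KO library was well below the lowest WT library. Phtf1 was far lower, at 42.1, 26.7 and 28.1 CPM in WT and 67.6, 26.0 and 41.0 CPM in KO. Those values overlapped between genotypes. Phtf1os also shares 2101 bases with Rsbn1 on the opposite strand, whose log2 fold change was −0.33 (limma adjusted p = 0.589).

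Has2os showed a large difference in which 1 library weighed heavily. Has2 makes hyaluronan, the glycosaminoglycan on which aggrecan is assembled in cartilage, and its antisense transcript (chr15:56689944-56778399) shares 182 noncoding exon bases with it. Has2os was at 151, 162 and 668 CPM in WT 1 to 3 and at 85.9, 45.6 and 86.9 CPM in KO 1 to 3. WT 3 was far above the other 5 libraries, but all KO values were below all WT values. The log2 fold change was −1.86 (limma SE 0.53, adjusted p = 0.283) and −1.16 without WT 3. Has2 itself was at 23.9, 45.7 and 130.2 CPM in WT and at 43.5, 31.4 and 20.8 CPM in KO. WT 3 was thus the highest library for both rows, and the Has2 values of the genotypes overlapped.

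Fancd2os (chr6:113596761-113600715), annotated as protein coding, overlaps the 3′ end of Fancd2, a DNA crosslink repair gene, by 257 noncoding bases. It was at 27.01, 21.3 and 24.0 CPM in WT and at 8.78, 5.39 and 12.2 CPM in KO, with no overlap (log2 fold change −1.47, limma SE 0.40, adjusted p = 0.281). Fancd2 had no row. Tnk2os (chr16:32665223-32668197) crosses an exon of Tnk2, a nonreceptor tyrosine kinase, as printed above. It was at 19.5, 17.5 and 30.5 CPM in WT and at 8.78, 7.35 and 11.6 CPM in KO (a log2 fold change of −1.22, limma SE 0.38, adjusted p = 0.315). Again no KO library reached the lowest WT library, and Tnk2 had no row.

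Rptoros (chr11:119820812-119834365) lies within Rptor, the gene of Raptor, the scaffold of the growth-regulating kinase complex mTORC1. It had the most even WT values of these, 17.0, 16.0 and 17.6 CPM, against 4.96, 4.41 and 9.18 CPM in KO (a log2 fold change of −1.44, limma SE 0.46, adjusted p = 0.315). Rptor was at 3.14, 6.86 and 17.0 CPM in WT and at 11.8, 7.35 and 11.6 CPM in KO, overlapping between genotypes. Kcnmb4os2 (chr10:116473163-116475319), opposite the start of Kcnmb4, a regulatory subunit of the large-conductance potassium channel, was at 10.7, 22.1 and 12.3 CPM in WT and at 2.67, 5.39 and 3.67 CPM in KO (a log2 fold change of −1.79, limma SE 0.57, adjusted p = 0.317). At these levels a KO value rests on few reads. Of the KO libraries only KO 3 reached 7.35 CPM for Rptoros, and no KO library did for Kcnmb4os2. Both thus had their rows through WT, which favoured a lower KO value.

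Of the 13 with an unadjusted p below 0.05, the others were Rbm3os, Ino80dos, Far1os, Arhgap15os, Brip1os, Rab10os and Atxn7l1os2, with log2 fold changes from −0.54 to −2.67. All 13 stayed below 0 in each setting in which they were tested, and Phtf1os, Has2os and Fancd2os had an unadjusted p below 0.05 in all 18 (the main one and 17 alternatives). Far1os and Arhgap15os were singled out after their values were seen. Far1os, opposite the fatty acyl-CoA reductase of ether lipid synthesis, was at 132, 43.4 and 50.4 CPM in WT and at 28.2, 29.4 and 36.7 CPM in KO. Its log2 fold change of −1.07 was −0.58 without WT 1, the library that stood highest. Arhgap15os, within the gene of a Rac regulator of blood cells, was at 18.2, 10.7 and 17.0 CPM in WT and at 0, 5.39 and 4.28 CPM in KO. The library with no read, KO 1 (where 3 reads are 1.14 CPM), was also the one with the lowest macrophage marker sum, 918 CPM. KO 2, with the highest sum (14077 CPM), had 5.39 CPM of Arhgap15os, below every WT library. The part of macrophages in these values was not tested.

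Above 0, no transcript reached an unadjusted p below 0.05. The 6 of smallest p were Ggnbp2os, Mccc1os, Zbtb11os1, Chd3os, Frs3os and Zfp85os. Ggnbp2os was at 9.42, 14.5 and 24.6 CPM in WT and at 22.5, 23.5 and 33.0 CPM in KO, a log2 fold change of 0.77 (limma SE 0.39, adjusted p = 0.495); the genotypes overlapped at WT 3. Its sense gene Ggnbp2 was at 51.0 to 64.1 CPM in WT and 58.4 to 71.6 CPM in KO. Mccc1os, opposite a subunit of the leucine-breakdown enzyme methylcrotonyl-CoA carboxylase, was at 12.6, 13.7 and 11.1 CPM in WT and at 16.8, 18.1 and 17.7 CPM in KO (a log2 fold change of 0.48, limma SE 0.33, adjusted p = 0.589). It was the only one of the 48 with all KO values above all WT values.

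Zbtb11os1, at the start of the zinc finger gene Zbtb11, was at 36.4, 49.5 and 80.3 CPM in WT and at 59.5, 72.5 and 84.4 CPM in KO (a log2 fold change of 0.44, limma SE 0.30, adjusted p = 0.591). Zbtb11 was at 33.3, 25.9 and 45.1 CPM in WT and at 65.3, 68.1 and 79.5 CPM in KO, with no overlap (log2 fold change 1.05, limma SE 0.26, adjusted p = 0.273). Both rows thus leaned the same way. Chd3os (RefSeq symbol Rnf227), near the chromatin remodeller gene Chd3, was at 6.28, 0 and 12.3 CPM in WT and at 6.11, 2.45 and 9.18 CPM in KO. Its log2 fold change was 0.71 with all libraries and −0.70 without WT 2, the library at 0, and the KO mean was below the WT mean in CPM. Frs3os, opposite an adaptor of fibroblast growth factor receptors, was at 12.6, 20.6 and 19.3 CPM in WT and at 16.0, 24.0 and 18.96 CPM in KO. Zfp85os, opposite a zinc finger gene, was at 4.40, 7.62 and 8.79 CPM in WT and at 8.78, 15.7 and 4.28 CPM in KO. Both overlapped between genotypes, and both changed sign when single libraries were left out. Zfp85 was at 3.14, 13.7 and 12.9 CPM in WT and at 8.40, 8.33 and 4.89 CPM in KO.

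**Figure D2:**
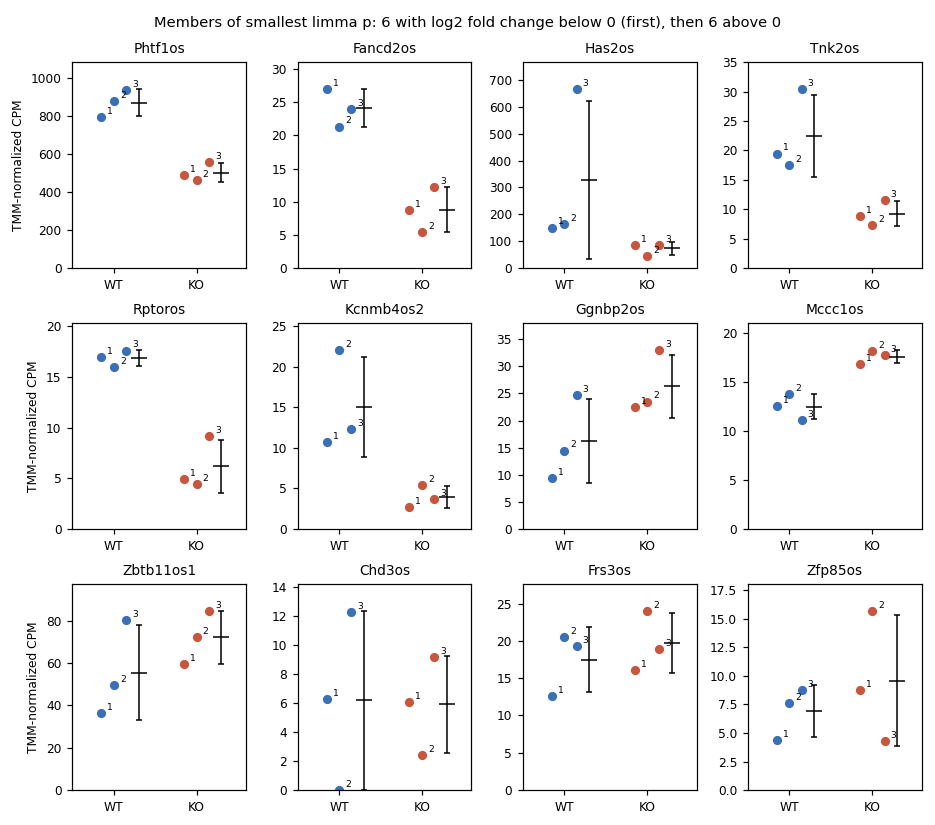
Each panel shows 1 transcript, with the level in TMM-normalized CPM on the vertical axis, numbered points for libraries 1 to 3 of WT (blue) and KO (red), and the mean with 1 SD. In the first 6 panels all KO points lie below all WT points, from Phtf1os at 463.5 to 938 CPM to Kcnmb4os2 at 2.67 to 22.1 CPM; of the last 6, Mccc1os alone has no overlap.

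Levels of the 48 spanned means of 6.05 to 686 CPM with a median of 26.6, where the median of all rows was 26.3. A mean of at least 100 CPM was seen in 9 and a mean below 20 CPM in 22. The 4 most abundant were Phtf1os, Brip1os, Peg3os and Tomm6os. Brip1os, which starts next to the helicase gene Brip1, was at 606, 791 and 713 CPM in WT and at 436, 432 and 592 CPM in KO, without overlap (log2 fold change −0.54, limma SE 0.20, adjusted p = 0.378). It also shares exon bases with the opposite-strand genes Ints2 (512 bases, log2 fold change −0.72) and Med13 (800 bases, log2 fold change −0.09). Tomm6os, opposite a subunit of the mitochondrial import pore, was at 471, 578 and 600.4 CPM in WT and at 402, 408 and 450.2 CPM in KO (a log2 fold change of −0.38, limma SE 0.18, adjusted p = 0.469). Its values did not overlap either. Peg3os, at the imprinted zinc finger gene Peg3, was at 547, 436.5 and 567.5 CPM in WT and at 815, 436 and 426 CPM in KO, where KO 1 stood above and the other KO libraries at or just below the lowest WT library.

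Between a transcript and its sense gene the balance varied widely. In 9 of 27 pairs the transcript had more CPM than the sense gene in all 6 libraries, in 6 it had less in all 6, and in 11 the order varied. In 1 pair, Dnmt3aos and Dnmt3a, the transcript was equal in WT 3 and lower in the other 5 libraries. The median over pairs of the log2 ratio of transcript to sense gene was −0.11. Per kilobase of exon, the transcript was above its sense gene in 19 of 24 pairs with known lengths. These lengths count the exon bases of all annotated transcripts of a gene, so they can exceed the length of any 1 transcript. Zeb2os, for example, was 0.929-fold Zeb2 in CPM and 9.31-fold per kilobase, with 19942 bases counted for Zeb2. In CPM the highest ratios belonged to Brip1os (91.3-fold Brip1 in CPM and 105-fold per kilobase), Tomm6os (22.5-fold Tomm6 in CPM and 8.65-fold per kilobase) and Phtf1os (17.9-fold Phtf1 in CPM and 32.3-fold per kilobase). Brip1 was at 5.28 to 10.7 CPM in WT and 2.45 to 9.16 CPM in KO, and Tomm6 at 17.0 to 22.6 CPM in WT and 15.7 to 28.7 CPM in KO. Per kilobase Tomm6os stood below Phtf1os, Ino80dos (30.8-fold), Man2c1os (16.2-fold), Rptoros (13.3-fold) and Zeb2os (9.31-fold). At the other end of the order in CPM, Chd3 exceeded Chd3os 20.6-fold in CPM, Lpp, an adhesion-site LIM protein gene, exceeded Lppos 6.24-fold, and Topors, a ubiquitin and SUMO ligase gene, exceeded Toporsos 4.87-fold. Per kilobase the lowest ratios were those of Rab10os (0.119-fold Rab10, a GTPase gene of vesicle traffic) and Zfp85os (0.533-fold Zfp85). Chd3 was at 89.9 to 122 CPM in WT and 46.6 to 149.9 CPM in KO.

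Lppos was at 23.9, 3.81 and 24.0 CPM in WT and at 22.9, 9.80 and 20.8 CPM in KO, beside 98.0 to 102 CPM of Lpp in WT and 77.1 to 108 CPM in KO. Libraries numbered 2 were the lowest of both genotypes for Lppos. Toporsos was at 15.7, 25.1 and 18.8 CPM in WT and at 13.0, 14.2 and 17.1 CPM in KO, beside 79.7 to 90.5 CPM of Topors in WT and 80.1 to 92.4 CPM in KO. Lppos per kilobase nevertheless exceeded Lpp 2.2-fold, since its exons over all annotated transcripts add up to 1603 bases against 22046 for Lpp.

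**Figure D3:**
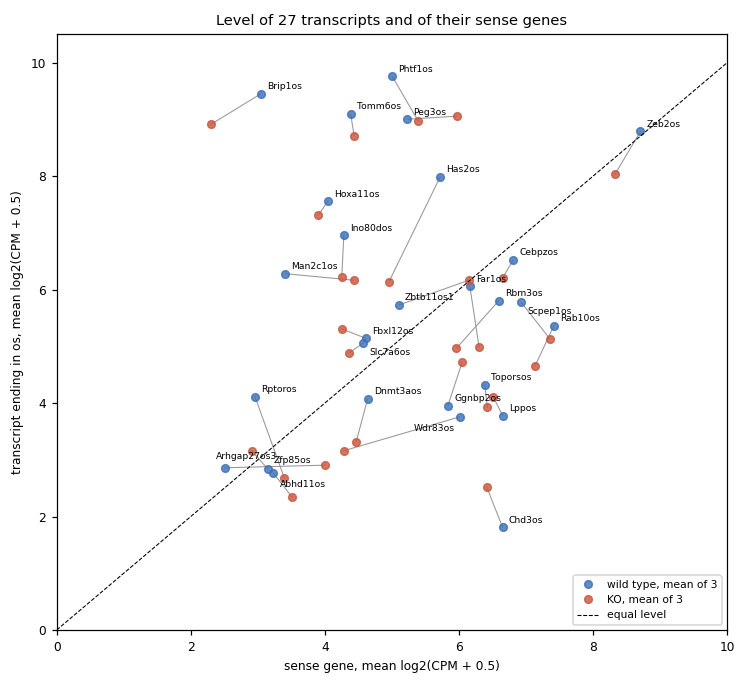
Mean log2(CPM + 0.5) of each of the 27 transcripts (vertical) against that of its sense gene (horizontal), in WT (blue) and KO (red), with a grey line joining the 2 means of a pair and a dashed line at equal level. Brip1os, Tomm6os and Phtf1os lie farthest above the dashed line, and Chd3os farthest below.

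Of the 27 sense genes, 0 were lower and 4 (14.8%) higher at an unadjusted p below 0.05 (Zbtb11, Man2c1, Scpep1 and Arhgap27), beside 6.4% and 4.64% of all rows. None was called with limma after adjustment, and the median log2 fold change was −0.14. Arhgap27, a GTPase-activating protein gene, was at 5.65, 3.81 and 6.45 CPM in WT and at 9.16, 25.5 and 15.9 CPM in KO (a log2 fold change of 1.49, limma adjusted p = 0.358). In 15 of 27 pairs the transcript and its sense gene had fold changes of the same sign. The difference between genotypes in the log2 ratio of transcript to sense gene was tested with limma over 1151 pairs of rows, those of the 27 and all others that share exon bases on opposite strands. No pair of the 27 passed (smallest adjusted p 0.309), and 0% of the 1151 pairs were called in either direction. At an unadjusted p below 0.05, 5 of 27 had a lower ratio in KO and 0 a higher one, so 18.5% of the 27 passed in either direction, beside 14% of all pairs. Over all pairs 6.43% were lower and 7.56% higher, but the sign of pairs outside the 27 has no meaning. The ratio was lower in KO in 19 of 27, with a median difference of −0.43.

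Those 5 were Phtf1os, Peg3os, Man2c1os, Has2os and Far1os. For Phtf1os the mean log2 ratio was 4.76 in WT and 3.57 in KO, a difference of −1.18 (limma SE 0.38, adjusted p = 0.309). For Has2os it was 2.268 and 1.1804, a difference of −1.09 (limma SE 0.42, adjusted p = 0.331). In Man2c1os, opposite the cytosolic alpha-mannosidase gene, the transcript was at 82.9, 60.9 and 91.5 CPM in WT and at 67.6, 71.0 and 75.9 CPM in KO, inside the WT range. Man2c1 was at 13.8, 9.14 and 8.21 CPM in WT and at 21.0, 25.0 and 17.7 CPM in KO without overlap, and the ratio differed by −1.13 (limma SE 0.37, adjusted p = 0.309). In Peg3os the ratio differed by −0.69 (limma SE 0.23, adjusted p = 0.309), with Peg3 at 48.4, 26.7 and 39.3 CPM in WT and at 103, 48.01 and 48.3 CPM in KO. In Far1os it differed by −1.21 (limma SE 0.49, adjusted p = 0.343), with Far1 at 65.3 to 79.7 CPM in WT and 64.9 to 99.5 CPM in KO. Leaving out single libraries gave 2 to 5 such pairs, with 2 when KO 2 was left out and 3 without KO 1, WT 2 or WT 3.

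**Figure D4:**
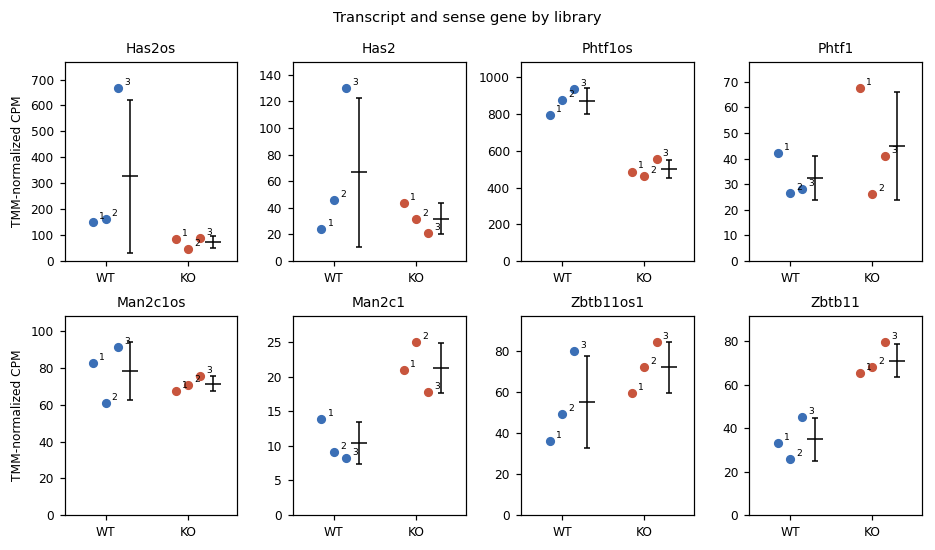
Levels in TMM-normalized CPM (vertical axis, different for each panel) of 4 transcripts and, to the right of each, its sense gene, with numbered points for libraries 1 to 3 of WT (blue) and KO (red) and the mean with 1 SD. Has2os and Phtf1os lie lower in KO while their sense genes overlap between genotypes; Man2c1 and Zbtb11 lie higher in KO while their antisense transcripts overlap.

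A few transcripts differed more among libraries of 1 genotype than between genotypes; they were singled out after their values were seen. Scpep1os, opposite a serine carboxypeptidase gene, was at 288, 1.52 and 283 CPM in WT 1 to 3 and at 263, 0 and 325 CPM in KO 1 to 3. It was nearly absent from WT 2 and KO 2 and abundant in the other 4 libraries, and 1 of 10189 rows, this one, was below 5 CPM in those 2 libraries and above 20 CPM in the others. Its sense gene Scpep1 showed no such gap, with 128, 105 and 133 CPM in WT and 184, 159 and 151 CPM in KO. Abhd11os, beside a mitochondrial hydrolase gene, was at 21.4, 28.2 and 0 CPM in WT and at 0, 13.7 and 17.7 CPM in KO. It was the 1 row at 0 in WT 3 and KO 1 and above 10 CPM in the other 4 libraries, where 3 reads are 1.76 CPM in WT 3 and 1.14 CPM in KO 1. For Scpep1os and Abhd11os alike, the libraries and cut-offs of the count followed the row's own values, so each row met its count in advance. Rows with such a gap in other libraries were not counted. Uckl1os, opposite a uridine kinase gene, was at 32.7, 177.5 and 101 CPM in WT and at 32.1, 160 and 80.1 CPM in KO. Library 1 was the lowest and library 2 the highest in both genotypes, although over all rows the libraries that share a number did not deviate together.

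**Figure D5:**
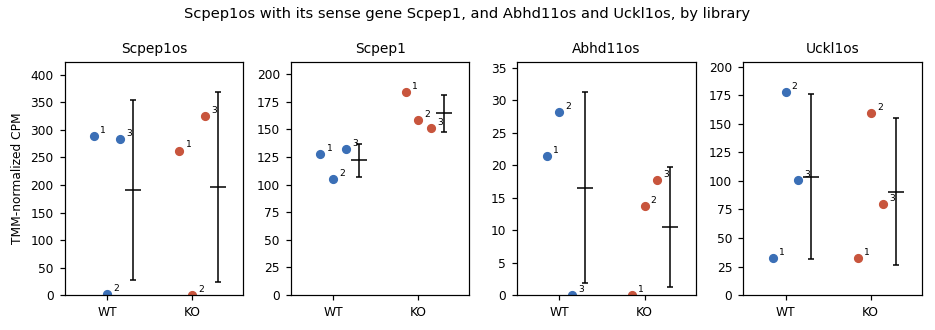
Levels in TMM-normalized CPM of Scpep1os, its sense gene Scpep1, Abhd11os and Uckl1os, with numbered points for libraries 1 to 3 of WT (blue) and KO (red) and the mean with 1 SD. Scpep1os lies at 1.52 CPM or below in WT 2 and KO 2 and at 263 CPM or above elsewhere, while Scpep1 lies between 105 and 184 CPM in all 6.

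Among transcripts of skeletal patterning and growth, also chosen after their values were seen, the genotypes overlapped. Hoxa11os, which shares 709 coding bases with Hoxa11, was at 139.5, 196 and 245 CPM in WT and at 169, 89.7 and 261 CPM in KO (a log2 fold change of −0.25, limma SE 0.37, adjusted p = 0.809). Hoxa11 was at 13.0 to 24.0 CPM in WT and 9.80 to 17.7 CPM in KO, below its antisense transcript in each library. Dnm3os, the host of the miR-199a and miR-214 sequences printed above, was at 29.5, 38.9 and 27.6 CPM in WT and at 32.4, 17.6 and 16.5 CPM in KO (a log2 fold change of −0.57, limma SE 0.33, adjusted p = 0.541), with KO 1 inside the WT range. Zeb2os, opposite the transcription factor gene Zeb2, was at 472, 539 and 341 CPM in WT and at 140, 434 and 293 CPM in KO. Its log2 fold change of −0.76 was −0.31 without KO 1, and Zeb2 was likewise lowest in KO 1, at 202 CPM, with 307 to 509.7 CPM in WT. KO 1 also had the lowest macrophage marker sum; the part of macrophages in these values was not tested.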

How the data were processed

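RNA of 3 KO and 3 WT cultures was sequenced with a stranded total RNA kit and 75 cycles from each end, per the labels' protocols. The table that the authors deposited holds a signal for each of 10189 genes in each library, which its name gives as TMM-normalized CPM. Tools named without roles in the submitters' processing notes are HISAT2 2.1.0, cutadapt 1.18, StringTie 1.3.5, edgeR and bcl2fastq; the build is mm10. Divided by the library's smallest step, 100% of values came out whole (tolerance 0.001 reads), so read counts were recovered from the deposited signal for edgeR and DESeq2. The design had assumed plain CPM. The test on the log scale was kept.

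Symbols were matched to GENCODE M21 by symbol or Entrez number for 10117 rows (99.3%) and 43 of 48 members. The other 5 have coordinates from RefSeq on GRCm38.p6. Exon overlaps, ratios and seed matches were computed from GENCODE M21 on mm10. The main test was limma 3.58.1 in R 4.3.3 with a trend on log2(CPM + 0.5). It was two-sided, and p-values were adjusted by Benjamini-Hochberg over all rows, or over 1151 pairs for ratios, with a threshold of 0.05. Scripts were tested on simulated data. Of the members, values per library are given for the 6 of smallest p in each direction, the 4 most abundant, and the 3 highest and 3 lowest ratios to the sense gene, with their sense genes, and for those said in the text to be chosen after their values were seen. Alternatives were pseudocounts of 0.1 and 2, a mean of at least 10 CPM, quantile normalization, scaling to the total without Rn45s, Lars2 and Mir6236, limma without a trend or with robust moderation, a replicate block, edgeR 4.0.16, DESeq2 1.42.0, leaving out each library, leaving out WT 1 and KO 2 together, and, for ratios, keeping only members that share exon bases with their sense gene. The members, lists and tests were chosen with earlier results of these data known.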

Additional observations from a re-analysis of the deposited data

How the results depend on the processing

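Limma called no member under any alternative. Of the count tests, DESeq2 called 2 lower and 0 higher, and edgeR 0. Without single libraries, members at an unadjusted p below 0.05 numbered 6 to 13 lower and 0 to 2 higher, and pairs 2 to 5 lower and 0 to 1 higher (7.73% to 15.3% of all pairs in either direction). Over all 17 alternatives that refit the table the members lower at that p numbered 6 to 15 (3.77% to 7.8% of all rows), and their median log2 fold change ran from −0.48 to −0.28. The replicate numbers did not pair the libraries, since the deviations of same-numbered libraries from their group means correlated at 0.02, 0.07 and −0.06. With the replicate block 0 members were called, 14 were lower at an unadjusted p below 0.05 (6.37% of all rows), and 5 pairs were lower (15.3% of all pairs in either direction).

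Some log2 fold changes near 0 or with a library near 0 changed sign. Without single libraries they ran from −0.70 to 1.64 for Chd3os, −0.039 to 0.31 for Frs3os, −0.11 to 0.77 for Zfp85os, −0.25 to 0.22 for Peg3os, −0.50 to 0.75 for Lppos, −3.03 to 2.41 for Scpep1os, −2.31 to 1.25 for Abhd11os, −0.84 to 0.43 for Uckl1os and −0.61 to 0.15 for Hoxa11os. Chd3os was at −0.072 with DESeq2, −0.11 with edgeR and −0.21 with quantile normalization, and Scpep1os at 0.053 with DESeq2 and 0.029 with edgeR. Without WT 1 and KO 2 together Frs3os was at −0.19, Zfp85os at −0.38 and Scpep1os at 3.61. Beyond the left-out library, the cause was not tested. One read was worth up to 0.762 CPM, so values of the lowest members rest on few reads.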

Other observations

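Of 27 other antisense or noncoding transcripts on a separate list, not all of them antisense, 17 had a row. At an unadjusted p below 0.05, 3 had lower values in KO (Tsix, Kcnq1ot1 and H19) and 3 higher (Meg3, Malat1 and Neat1), beside 6.4% and 4.64% of all rows, and limma called 0 of them after adjustment. Their median log2 fold change was −0.08. DESeq2 called Malat1 higher (log2 fold change 1.22, DESeq2 adjusted p = 0.00136), where it called 0.666% of rows higher. Tsix, Kcnq1ot1 and Xist did not pass with DESeq2 (adjusted p = 0.0861, 0.296 and 0.937). DESeq2 results for the rest of the list are not given here.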
